A study of Mus musculus with 8 samples.

Results

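Whole-region expression of the mouse hippocampus was compared between 21 and 3 months of age in 4 single-nucleus RNA libraries, the hippocampal ones among 8 in the study. All were made from the anterior hippocampus of C57BL/6JN mice, taken as punches from the left hemisphere. Both ages were represented by 2 libraries, and the labels give no further treatment or genotype. By the labels, nuclei of a male and a female mouse of that age were mixed in equal number for each library, although the sexed nuclei counted below were not evenly split. A library thus stood for 2 animals and was the replicate. Every barcode with at least 500 genes detected was used, which gave 46752 nuclei of 108519 in the series, and the counts of unique molecular identifiers (UMIs, each standing for 1 captured RNA molecule) were summed per library. Levels are given as CPM, a gene's UMIs scaled by the total UMIs of the library sum. Where 4 values stand together they belong to 3-month replicates 1 and 2 and then 21-month replicates 1 and 2.

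The hippocampus is a fold of cortex that supports spatial and episodic memory. Its main excitatory relay runs from the granule neurons of the dentate gyrus to the pyramidal neurons of CA3 and on to those of CA1, and interneurons, oligodendrocytes, astrocytes, microglia and vessels surround them. The dentate gyrus is one of the few regions of the adult rodent brain in which neurons are still born, and aging of this tissue is known for a loss of newborn neurons, for myelin changes and for activation of glia. Nuclear RNA holds many unspliced transcripts and long noncoding RNAs and little cytoplasmic RNA.

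The library sums held 113901523 and 234752035 UMIs at 3 months and 91043080 and 67159015 at 21 months, from 11030, 20168, 8999 and 6555 nuclei. The median nucleus held 7963, 9487, 7910 and 8365 UMIs. Mitochondrial transcripts made up at most 0.00762% of UMIs in these libraries. Between 0.305% and 0.610% of the barcodes of the smaller library were shared by pairs of hippocampal libraries. Among the nuclei that could be sexed by Xist and Y-linked UMIs (72.6% to 81.0% of a library), 59.0% and 60.3% were female at 3 months and 51.9% and 50.9% at 21 months, so the ages did not overlap in sex make-up. Nuclei with both kinds of UMI, which were left out of the sums by sex, made up 20.4% of 3-month replicate 2 and 8.86% to 11.6% of the other hippocampal libraries, and doublets were not called. The tissue label was borne out by the markers: Prox1, the transcription factor of dentate granule neurons, stood at 155, 208, 168 and 178 CPM. Nothing in the labels says that a replicate number ties libraries of both ages, and p-values measure the spread between these libraries.

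With 2 libraries against 2, the edgeR quasi-likelihood test called 10 genes higher at 21 months among 21434 tested (0.0467%) and no gene lower (0%), at a Benjamini-Hochberg adjusted p under 0.05. Without adjustment, 1456 genes were higher (6.79%) and 1192 lower (5.56%) at a p under 0.05. DESeq2 called 370 higher (1.73%) and 180 lower (0.840%). The median log2 fold change over all genes tested was -0.01. Of the 10 genes that rose, 8 were annotated as noncoding and 2 as protein-coding, and their log2 fold changes lay between 1.08 and 3.23. Leaving out 1 library reduced the calls to 2 (without 3-month replicate 1), 1 (without 3-month replicate 2), 3 (without 21-month replicate 1) and 1 (without 21-month replicate 2), and all 10 genes stayed higher in each. Of them Gm48530 passed in all 4 of these fits, 9330111N05Rik also without 3-month replicate 1 and Gm40653 also without 21-month replicate 1, while the other 7 passed in none. With all 8 libraries of the study in the fit, 5 of the 10 still passed.

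The gene with the smallest p was Gm48530 (ENSMUSG00000112968), a long intergenic noncoding RNA at chr13:3325296-3358455 on the minus strand of GRCm38. It measured 13.4, 13.8, 110.6 and 114.8 CPM, which were 1528, 3236, 10073 and 7713 UMIs. Both 21-month libraries lay far above both 3-month libraries and each pair was tight (log2 fold change 3.04 ± 0.08 SE, edgeR adjusted p = 0.000966), and this gene passed without any one of the libraries. It did not pass with all 8 libraries in the fit (edgeR adjusted p = 0.183) or with female nuclei only (edgeR adjusted p = 0.0667), where its log2 fold changes were 3.04 and 2.56. A second long intergenic noncoding RNA, Gm40653, begins at chr13:3273235 and ends at 3282998 on the plus strand, 42.3 kb from Gm48530. Its levels were 1.33, 1.26, 10.7 and 13.8 CPM (3.23 ± 0.19 SE, edgeR adjusted p = 0.0185). No other gene of the matrix overlapped either of them. The nearest protein-coding gene of the matrix to both was Gdi2, which codes for a regulator of Rab GTPases. These identifiers and those with Gm or Rik numbers below were named after their values were seen.

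Cpa6 and Abca8a were the protein-coding genes that rose. Cpa6, a secreted carboxypeptidase (chr1:10324720-10719945, minus strand), measured 6.55, 6.30, 25.9 and 27.4 CPM, a log2 fold change of 2.04 ± 0.10 SE (edgeR adjusted p = 0.0185). Abca8a, a transporter of the ABC family (chr11:110025634-110095978, minus strand), measured 12.5, 11.6, 30.1 and 29.5 CPM (1.30 ± 0.09 SE, edgeR adjusted p = 0.0276). Neither overlapped another gene of the matrix. In both genes the 21-month libraries differed from each other by much less than from the young ones.

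Neat1, the long noncoding RNA around which nuclear paraspeckles assemble (chr19:5824708-5845478, minus strand), measured 70.2, 66.9, 144.2 and 147.2 CPM. Its log2 fold change was 1.08 ± 0.07 SE (edgeR adjusted p = 0.0217), about the same in both old libraries, and it was the most abundant of the genes called. Among the 1014 distinct genes of the 50 fixed lists used here, Neat1 was the only one called. It passed in none of the fits without 1 library (edgeR adjusted p from 0.0683 to 0.208), and its ratio of old to young was 2.86 in female and 1.52 in male nuclei. A530053G22Rik, on chromosome 6, measured 2.32, 2.94, 26.9 and 21.9 CPM. The other noncoding genes called were A330049N07Rik at 14.7, 14.1, 37.6 and 35.5 CPM and 9330199G10Rik at 4.37, 3.91, 12.4 and 12.3 CPM.

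Both remaining calls were antisense to protein-coding genes, and whether the counting used strand is not given in the sources used here. 9330111N05Rik, at 20.9, 17.4, 69.0 and 67.9 CPM, overlaps Adgrv1 on the opposite strand. Adgrv1, an adhesion G protein-coupled receptor, measured 16.0, 10.4, 15.5 and 16.7 CPM, and its age groups overlapped. Gm49375, which overlaps on the same strand, moved like 9330111N05Rik at 0.588, 0.422, 1.86 and 1.62 CPM (edgeR adjusted p = 0.126). Gm16233 overlaps Clca4a, and the pair moved alike: 0.527, 0.443, 3.68 and 3.22 CPM for Gm16233 beside 0.535, 0.264, 2.84 and 2.95 CPM for Clca4a (edgeR adjusted p = 0.0960 for the latter). How far the counting kept the reads of these partners apart was not tested.

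**Figure D1:**
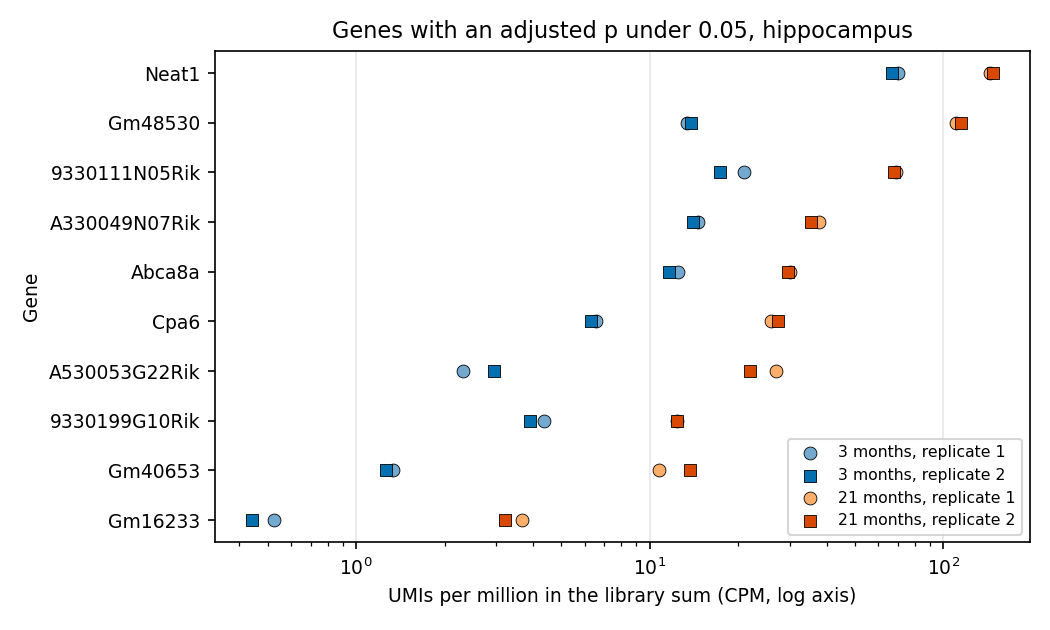
CPM on a log axis of the 10 genes called by edgeR (rows, ordered by mean level) in each of the 4 libraries, blue for 3 months and orange for 21 months, circles for replicate 1 and squares for replicate 2. Every 21-month point lies to the right of both 3-month points of its gene, from Gm16233 at under 1 CPM in young libraries to Neat1 at 144.2 and 147.2 CPM in old ones.

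The same 10 genes were also looked at in the sums of female and of male nuclei, which come from different animals of the same libraries. Since these nuclei are part of the sums in which the genes were called, their order here is a description. All 10 were higher at 21 months without overlap in female nuclei and all 10 in male nuclei, an order that 26.1% and 16.6% of all genes showed. Gm48530 measured 20.5 and 18.7 CPM in young females, 5.04 and 8.84 in young males, 106.9 and 126.7 in old females and 122.0 and 105.9 in old males. A530053G22Rik measured 1.57 and 1.99 CPM in young females against 35.1 and 23.9 in old ones, and 4.00 and 3.95 CPM in young males against 20.4 and 15.8 in old ones. For this gene the age difference was larger in females by 1.775 on the log2 scale (0.15 SE, edgeR sex-by-age adjusted p = 0.0325, a test added after the data were seen). The same coefficient was 2.585 for Gm16233 and 1.215 for 9330199G10Rik (edgeR adjusted p = 0.131 and 0.1215). It was -2.258 for Gm40653 and -1.514 for Gm48530, a larger age difference in males (edgeR adjusted p = 0.0706 and 0.1535). The other called genes lay between -0.584 (Cpa6) and 0.8395 (Neat1), and none of these passed. That test called 13 genes with a more positive (0.0659%) and 1 with a more negative age effect in females (0.00507%) among 19724.

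No gene was called lower, and 4 protein-coding genes with small p are named here after their values were seen. Igfbpl1, a marker of immature neurons, measured 1.80, 1.53, 0.198 and 0.134 CPM (log2 fold change -3.30 ± 0.28 SE, edgeR adjusted p = 0.0668). Shoc1, known for its role in meiotic crossovers, measured 19.5, 22.5, 5.54 and 7.13 CPM (edgeR adjusted p = 0.0824). Crym, a thyroid hormone binding protein, measured 25.9, 26.9, 12.05 and 13.7 CPM (edgeR adjusted p = 0.0831). Matn2, a matrix protein, measured 70.5, 71.7, 45.5 and 46.8 CPM (edgeR adjusted p = 0.0880). In each of them both old libraries lay below both young ones, an order that 23.8% of all genes tested showed and that 22.5% showed in the opposite direction.

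Cell type make-up was described with 24 lists of marker genes, summed per library. In sums over nuclei, fewer nuclei of a type and less RNA per nucleus cannot be told apart. The summed CPM of 7 lists was higher in both old libraries than in both young ones, that of 3 was lower, and 14 overlapped. With 2 libraries against 2 the lowest p of an exact permutation test is 0.333 (6 arrangements), so these sums are given without a test.

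**Figure D2:**
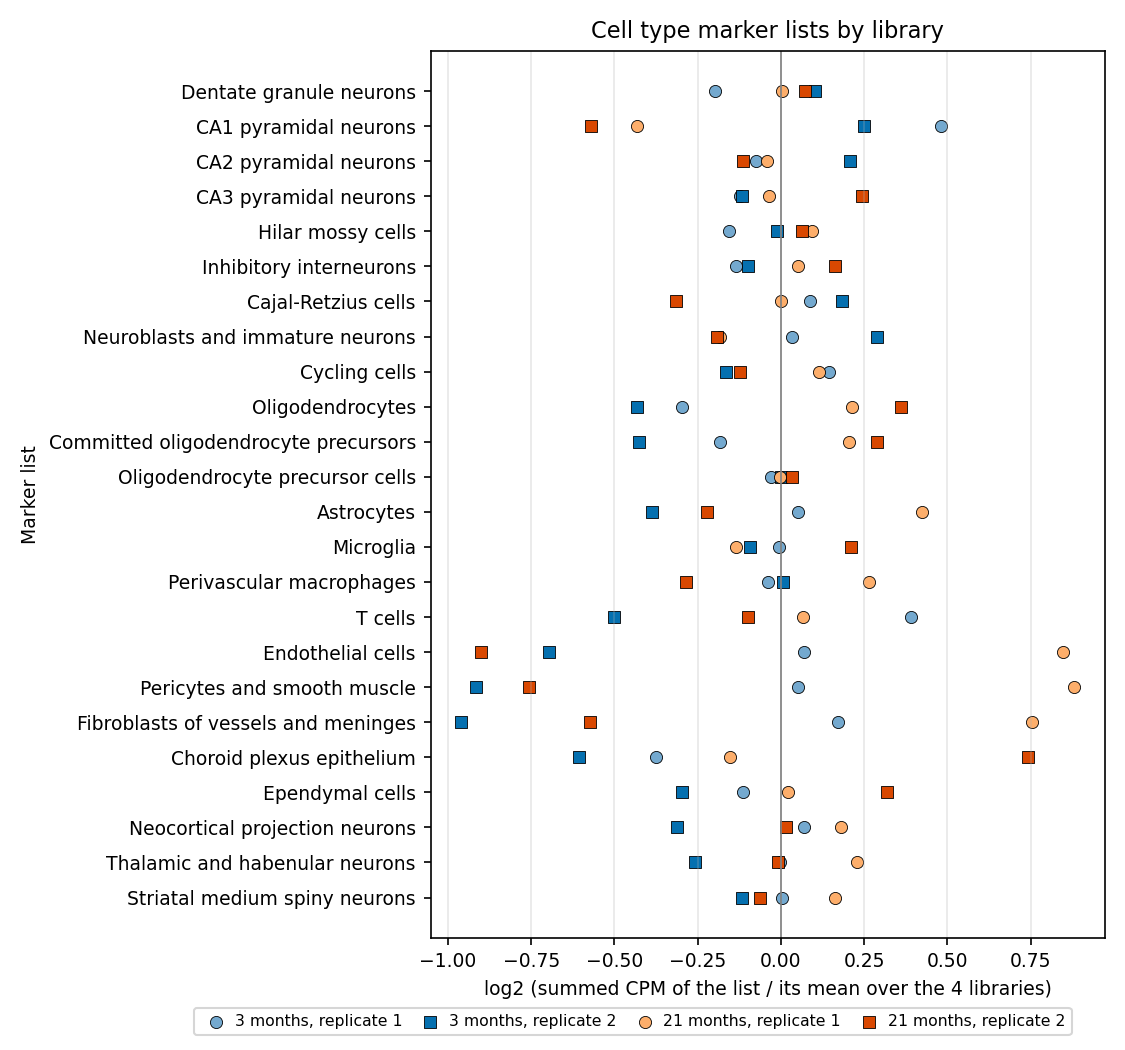
Summed CPM of 24 marker lists in each library as a log2 ratio to the mean of the 4 libraries, blue for 3 months and orange for 21 months. Oligodendrocyte markers (502 to 550 against 785 and 869 CPM) and CA1 markers (98.9 to 116 against 56.0 and 61.7 CPM) separate the ages, while the vascular lists are high in 21-month replicate 1 and low in 21-month replicate 2.

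Oligodendrocyte markers, which code for myelin proteins and enzymes of myelin lipids, were higher at 21 months as a whole list. All 12 members lay higher in both old libraries (22.5% of all genes), 11 of them with an unadjusted p under 0.05 (6.79%) and 8 by DESeq2 (1.73%), with a median log2 fold change of 0.71, but edgeR called none after adjustment. The summed list measured 550, 502, 785 and 869 CPM. Mbp, myelin basic protein, stood at 196, 172, 263 and 285 CPM (0.57 ± 0.10 SE, edgeR adjusted p = 0.179). Opalin, an oligodendrocyte membrane protein, had the largest difference of the list at 12.1, 10.1, 21.4 and 27.2 CPM, and Ugt8a, which makes the myelin lipid galactosylceramide, stood at 32.1, 26.6, 58.4 and 56.5 CPM (both named after their values were seen). The wider list of myelin and cholesterol synthesis genes shares members with the oligodendrocyte markers, so it is not a separate result. It had 11 of 24 tested members higher and 2 lower without overlap (22.5% and 23.8% of all genes). At an unadjusted p under 0.05, 7 were higher (6.79% of all genes), and the median log2 fold change was 0.19.

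In sums by sex, the oligodendrocyte list separated the ages in female nuclei and overlapped in male nuclei. In female nuclei the list measured 377 and 444 CPM at 3 months and 938 and 725 CPM at 21 months, and all 12 members were higher without overlap (26.1% of all genes tested in female nuclei). In male nuclei it measured 659 and 506 CPM at 3 months and 544 and 752 CPM at 21 months, and 1 of 12 members was higher without overlap (16.6% in male nuclei). The sex-by-age test gave a median difference of 0.74 over the 12 members, with 5 more positive in females at an unadjusted p under 0.05 and none more negative (8.76% and 6.80% of all genes), and none called by edgeR. For Mbp the female age effect exceeded the male one by 0.76 ± 0.27 SE (edgeR adjusted p = 0.283). The share of female nuclei also differed between the ages, as given above. Other marker lists were also higher at 21 months in the same female sums. Thalamic and habenular markers stood at 189 and 169 against 326 and 219 CPM and fibroblast markers at 10.5 and 6.84 against 33.2 and 12.2 CPM. Perivascular macrophage markers stood at 10.4 and 7.18 against 20.8 and 11.7 CPM and committed precursor markers at 37.4 and 39.1 against 86.0 and 62.0 CPM. Microglial markers stood at 142 and 146.5 against 148 and 176 CPM. Precursor, choroid plexus, mossy cell and interneuron markers were higher as well. In male nuclei thalamic, fibroblast, committed precursor, microglial and choroid plexus markers overlapped between ages. Macrophage and precursor markers lay lower there, and mossy cell and interneuron markers higher. Their part in the oligodendrocyte result was not tested.

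**Figure D3:**
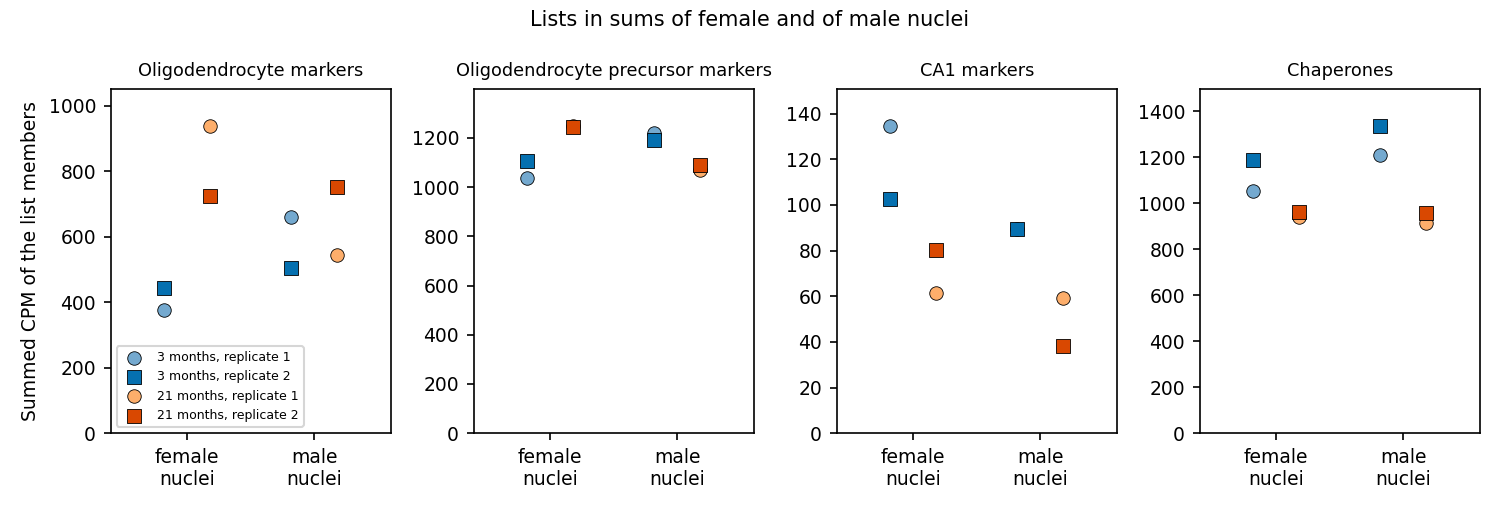
Summed CPM of 4 gene lists in female and in male nuclei of each library, blue for 3 months and orange for 21 months, circles for replicate 1 and squares for replicate 2, axes from 0. Oligodendrocyte markers separate the ages in female nuclei and overlap in male nuclei, whereas CA1 markers and chaperones lie lower at 21 months in both sexes.

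The earlier stages of the oligodendrocyte lineage were described in the same way, with no test between stages. Oligodendrocyte precursor markers measured 1129, 1153, 1152 and 1180 CPM in all and overlapped between ages. The median log2 fold change of the 9 members was 0.24, with 3 higher and 1 lower without overlap (22.5% and 23.8% of all genes). In the sums by sex given below, Tnr made up most of this list. Among the 5 markers of committed precursors tested, Bcas1 (42.9, 35.8, 58.2 and 60.8 CPM) and Enpp6 (6.29, 5.77, 9.63 and 10.1 CPM) lay higher. Gpr17, a receptor of the committed stage named after its values were seen, lay lower at 1.05, 1.15, 0.395 and 0.685 CPM. The list's sum did not overlap at 53.6, 45.3, 70.2 and 74.3 CPM, of which Bcas1 makes up most, while its median log2 fold change was -0.32. Tmem2 of this list was not analysed here.

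CA1 pyramidal markers were lower at 21 months. Of 7 members, 6 lay lower without overlap (23.8% of all genes), the same number had an unadjusted p under 0.05 (5.56%) and 5 were DESeq2 calls (0.840%), while edgeR called none. The sum fell short of the young level in both old libraries, at 116, 98.9, 61.7 and 56.0 CPM, and the median log2 fold change was -0.85. Mpped1 measured 40.3, 33.1, 21.1 and 19.9 CPM (-0.85 ± 0.11 SE, edgeR adjusted p = 0.120). Wfs1, an endoplasmic reticulum protein and a classical CA1 marker, overlapped between ages at 7.38, 6.76, 7.01 and 5.30 CPM.

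The CA1 sums were lower in both sexes, at 135 and 103 CPM against 61.2 and 80.1 in female nuclei and at 89.2 and 89.4 CPM against 59.2 and 38.3 in male nuclei. Tissue was taken by punch, and the share of each hippocampal field in a punch is not given in the sources used here. Markers of neocortical projection neurons, some of which neighbour the hippocampus, measured 781, 600, 844 and 753 CPM and overlapped, and those of thalamic and habenular neurons measured 245, 206, 288 and 244 CPM. By sex, the thalamic list was higher at 21 months in female nuclei and overlapped in male nuclei, as given above, and the neocortical list overlapped in female nuclei and was higher in male nuclei (785 and 632 against 811 and 822 CPM). The part of the punch in the CA1 result was not tested.

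The other neuronal classes differed less. Dentate granule markers overlapped between ages at 1420, 1750, 1634 and 1712 CPM, with Stxbp6 at 619, 755, 772 and 820 CPM. CA2 markers overlapped at 63.3, 77.1, 64.9 and 61.7 CPM. CA3 markers measured 770.5, 774, 818 and 994 CPM, led by the kainate receptor subunit gene Grik4 (272, 330, 320 and 362 CPM), and without 21-month replicate 2 the log2 ratio of the sums dropped from 0.23 to 0.084. Mossy cell markers measured 108, 119, 128 and 125 CPM. Interneuron markers measured 2284, 2344, 2597 and 2803 CPM, but the sum was carried by Adarb2 (1737, 1764, 1880.1 and 2131 CPM) and the median of the 13 members was -0.05. Erbb4, the neuregulin receptor of interneurons, stood at 413, 429, 567 and 530 CPM (0.37 ± 0.07 SE, edgeR adjusted p = 0.194).

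Markers of neuroblasts and immature neurons were lower at 21 months in 7 of the 8 members tested (23.8% of all genes), and 1 overlapped. The unadjusted p was under 0.05 for 4 (5.56% of all genes), DESeq2 called 2 (0.840%) and edgeR none. Dcx, the microtubule protein of migrating neuroblasts, measured 22.7, 24.5, 17.9 and 18.1 CPM (-0.40 ± 0.09 SE, edgeR adjusted p = 0.241). Sox11, a transcription factor of immature neurons, measured 17.6, 20.2, 16.4 and 14.3 CPM (-0.31 ± 0.11 SE, edgeR adjusted p = 0.378). Neurod2 measured 32.2, 43.6, 29.7 and 29.9 CPM. Igfbpl1, given above, was by far the lowest of the list. Eomes was the member that did not pass the filter on low counts. In the sums of female and of male nuclei 6 of 8 members were lower without overlap in each sex (23.5% and 24.2% of all genes).

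Cycling markers overlapped between ages at 38.7, 31.2, 37.9 and 32.1 CPM in sum. Of 7 members, 4 lay lower without overlap (23.8% of all genes). By sex, 1 lay lower and 1 higher in female nuclei (23.5% and 26.1% of all genes). The male nuclei had 4 lower and 1 higher (24.2% and 16.6%). Cajal-Retzius markers measured 64.7, 69.3, 61.0 and 49.0 CPM. In female nuclei the Cajal-Retzius sums overlapped at 39.8 and 60.35 against 75.55 and 48.3 CPM. In male nuclei they lay lower at 100.5 and 73.7 against 45.0 and 47.0 CPM. Without overlap, 3 of 5 members were higher in female nuclei (26.1% of all genes) and 5 of 5 lower in male nuclei (24.2%). The wider neurogenesis list had 10 of 22 tested members lower and 4 higher without overlap (23.8% and 22.5% of all genes), while its sum was slightly higher at 21 months at 940, 945, 992 and 964 CPM. Bdnf, the neurotrophin, overlapped between ages at 44.8, 49.9, 48.7 and 53.2 CPM (0.10 ± 0.10 SE, edgeR adjusted p = 0.679).

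Vascular and astrocyte lists differed between replicates of an age. Endothelial markers measured 141, 82.7, 241 and 71.9 CPM, pericyte and smooth muscle markers 32.1, 16.4, 57.0 and 18.3 CPM, and fibroblast markers 15.8, 7.22, 23.7 and 9.44 CPM. In all 3 lists replicate 1 of each age was the higher one and 21-month replicate 1 the highest. Astrocyte markers were also highest in replicate 1 of each age at 2299, 1696, 2978 and 1904 CPM, and the log2 fold change was above 0 for all 11 of them (median 0.38), with the glutamate transporter gene Slc1a2 at 1051, 638, 1376 and 847 CPM. Microglial markers overlapped at 147, 139, 135 and 171 CPM, perivascular macrophage markers at 13.5, 13.96, 16.7 and 11.4 CPM and T cell markers at 13.2, 7.13, 10.6 and 9.44 CPM. In female nuclei 11 of 13 microglial markers lay higher and 1 lower without overlap (26.1% and 23.5% of all genes). In male nuclei 0 lay higher and 1 lower (16.6% and 24.2%).

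Among markers of tissue that lines the ventricles, mainly 1 gene set 21-month replicate 2 apart. Choroid plexus markers measured 46.7, 39.8, 54.5 and 101 CPM. Their defining gene Ttr, transthyretin, was at 0.0615, 0.111 and 0 CPM in the other libraries and at 51.3 CPM in that one, and without it the log2 ratio of the list's sums dropped from 0.85 to 0.333. Htr2c, a serotonin receptor gene that made up most of the rest of the sum, measured 35.2, 27.9, 41.4 and 36.6 CPM. Ependymal markers measured 10.8, 9.50, 11.9 and 14.6 CPM. Striatal medium spiny markers were low and overlapped at 49.6, 45.7, 55.5 and 47.4 CPM.

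In lists of glial activation more members lay higher than lower at 21 months, but the summed levels of 4 of the 5 lists overlapped between ages. Reactive astrocyte genes summed to 176, 152, 323 and 258 CPM and did not overlap, with Neat1 making up a large part. Without Neat1 they summed to 106, 85, 178.5 and 110.9 CPM, and 21-month replicate 2 was close to the young libraries. Microglial activation genes summed to 373, 333, 424 and 353 CPM, interferon response genes to 108, 92.9, 135 and 105 CPM, MHC class I genes to 59.4, 61.7, 73.6 and 55.7 CPM and complement genes to 6564, 6662, 6281 and 6768 CPM. In the first 3 of these overlapping lists 21-month replicate 1 was the highest library. C4b, a complement component made by reactive astrocytes and oligodendrocytes, measured 5.37, 4.00, 20.8 and 12.8 CPM (1.83 ± 0.27 SE, edgeR adjusted p = 0.160), and DESeq2 called it. Gfap, the intermediate filament of astrocytes, measured 15.1, 8.39, 39.9 and 17.7 CPM (1.28 ± 0.45 SE, edgeR adjusted p = 0.378). Apoe, the main lipid carrier of the brain, overlapped at 155, 113, 179 and 116 CPM (0.12 ± 0.24 SE, edgeR adjusted p = 0.846). C4b, Gfap and Apoe were highest in 21-month replicate 1, the library with the highest astrocyte and vascular sums, and the part of that library in them was not tested beyond leaving it out. Without it the log2 fold change of Gfap was 0.609 and that of Apoe -0.201. The lowest log2 fold change of C4b in any alternative setting was 1.47.

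Of 16 reactive astrocyte genes tested, 7 were higher and 3 lower without overlap (22.5% and 23.8% of all genes). Neat1 was the one called (0.0467% of all genes), and the median log2 fold change was 0.87. Of 21 microglial activation genes tested, 12 were higher and none lower without overlap (22.5% and 23.8% of all genes, list median 0.46). The unadjusted p was under 0.05 for 6 of the 21, all higher (6.79% of all genes), DESeq2 called 2 higher (1.73%) and edgeR none. Gpnmb, a glycoprotein of phagocytes, measured 6.51, 6.19, 10.4 and 10.0 CPM, and Csf1, the ligand of the microglial survival receptor, 13.8, 12.96, 19.6 and 18.5 CPM (both named after their values were seen). Of 16 MHC class I genes, 11 were higher and 1 lower (22.5% and 23.8% of all genes, list median 0.59). At an unadjusted p under 0.05, 5 were higher and 1 lower (6.79% and 5.56% of all genes). DESeq2 called 1 of the 16 lower and none higher (0.840% and 1.73% of all genes), and edgeR called none. That list includes B2m, the light chain, at 4.57, 3.49, 7.44 and 4.66 CPM. Of 24 interferon response genes tested, 6 were higher (25%, near the 22.5% of all genes) and 2 lower (median 0.47), and of 18 complement genes 6 were higher (33.3%) and 2 lower (median 0.11). Mx1 and Clec7a of these lists were not analysed here.

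Chaperone genes were lower at 21 months across the list. Of 34 genes for heat shock proteins and chaperones of the endoplasmic reticulum, 29 lay lower in both old libraries (23.8% of all genes) and 1 higher (22.5%), and 19 were lower at an unadjusted p under 0.05 (5.56%). DESeq2 called 10 of them (0.840% of all genes) and edgeR none. The list summed to 1135, 1254, 932 and 972 CPM, and the median log2 fold change was -0.37. Hsp90ab1, the constitutive cytosolic HSP90, measured 116, 134, 87.3 and 101 CPM (-0.42 ± 0.12 SE, edgeR adjusted p = 0.302). Hspa4, a nucleotide exchange factor for HSP70, differed little at 75.6, 78.2, 72.5 and 73.99 CPM (-0.08 ± 0.07 SE, edgeR adjusted p = 0.620). In female nuclei 21 and in male nuclei 27 members were lower without overlap (23.5% and 24.2% of all genes).

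Members from several compartments were among the lower ones, named here after their values were seen. Hspa8, the constitutive cytosolic HSP70, measured 73.2, 93.3, 49.7 and 54.0 CPM. Hspa5, the HSP70 of the endoplasmic reticulum also called BiP, measured 30.6, 37.7, 20.9 and 22.8 CPM (-0.65 ± 0.13 SE, edgeR adjusted p = 0.216). Pdia6, a protein disulfide isomerase, measured 30.4, 37.9, 20.3 and 22.5 CPM. Hsp90b1, the HSP90 of the endoplasmic reticulum, measured 66.2, 79.2, 51.4 and 55.4 CPM. Calr, the lectin chaperone calreticulin, measured 23.7, 33.6, 16.6 and 18.4 CPM. The young values were the more spread ones in these genes, with 3-month replicate 2 the higher library each time. Xbp1, a transcription factor of the unfolded protein response, measured 14.5, 15.7, 11.0 and 11.2 CPM, and Cryab, a small heat shock protein abundant in oligodendrocytes, was the one member higher in both old libraries at 9.53, 8.15, 9.82 and 11.8 CPM.

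The promoters of some reticulum chaperones are shown, picked from the list members that carry a shared element. The endoplasmic reticulum stress response element, CCAAT followed after 9 bases of any kind by CCACG and searched on both strands, was found in the 250 bases before the transcription start in 7 of the 26 list members with a RefSeq promoter (GRCm38.p6), namely Calr, Canx, Creld2, Dnajc3, Hsp90b1, Hspa5 and Pdia6. It was found in 0.113% of all 32851 such windows, which was 35 of the 27025 genes with a promoter (0.1295%). All 7 lay lower without overlap at 21 months, as did 16 of the other 19 (23.8% of all genes). The median log2 fold changes of the 7 and of the 19 were -0.50 and -0.35. Capitals mark the element, or its reverse complement where it lies on the other strand, in the windows of Hspa5 (chr2:34771840-34772089, plus strand), Pdia6 (chr12:17266339-17266588, plus strand), Hsp90b1 (chr10:86705445-86705694, minus strand, with 2 matches) and Calr (chr8:84846932-84847181, minus strand).
Hspa5: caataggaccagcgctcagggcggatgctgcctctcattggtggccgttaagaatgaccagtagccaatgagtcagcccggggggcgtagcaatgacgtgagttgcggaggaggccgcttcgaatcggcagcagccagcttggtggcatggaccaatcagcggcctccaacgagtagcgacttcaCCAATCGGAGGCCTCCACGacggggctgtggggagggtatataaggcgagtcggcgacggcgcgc
Pdia6: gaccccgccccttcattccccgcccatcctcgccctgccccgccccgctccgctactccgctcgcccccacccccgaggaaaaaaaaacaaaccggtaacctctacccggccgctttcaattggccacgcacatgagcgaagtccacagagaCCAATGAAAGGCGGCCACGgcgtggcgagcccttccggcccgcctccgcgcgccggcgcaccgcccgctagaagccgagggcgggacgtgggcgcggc
Hsp90b1: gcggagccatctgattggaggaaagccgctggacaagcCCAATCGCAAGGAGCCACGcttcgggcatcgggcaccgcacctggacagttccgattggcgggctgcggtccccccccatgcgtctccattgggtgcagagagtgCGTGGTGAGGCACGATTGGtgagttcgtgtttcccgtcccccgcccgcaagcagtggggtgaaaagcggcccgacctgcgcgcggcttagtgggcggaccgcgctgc
Calr: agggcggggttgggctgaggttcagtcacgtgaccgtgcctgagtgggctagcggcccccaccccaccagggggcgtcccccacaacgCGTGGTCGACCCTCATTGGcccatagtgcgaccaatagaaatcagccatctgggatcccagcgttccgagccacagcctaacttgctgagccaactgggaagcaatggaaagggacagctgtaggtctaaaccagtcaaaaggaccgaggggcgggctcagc
In these sequences, written 5′ to 3′ along the gene, the match begins 65 bases before the start in Hspa5 and 98 bases before it in Pdia6.

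Immediate early genes, which neurons transcribe within minutes of activity, were also lower in old libraries. Of 22 genes, 13 lay lower and 1 higher without overlap (23.8% and 22.5% of all genes), and 11 were lower at an unadjusted p under 0.05 (5.56%). The median log2 fold change was -0.47, with 5 genes called lower by DESeq2 (0.840% of all genes) and none by edgeR. The list summed to 294, 277, 223 and 209 CPM. Homer1, a postsynaptic scaffold, measured 135, 124, 108 and 88 CPM (-0.42 ± 0.10 SE, edgeR adjusted p = 0.254), and Jun overlapped at 25.1, 29.8, 24.9 and 29.8 CPM. Among members named after their values were seen, Arc, which regulates AMPA receptor removal, measured 6.56, 6.56, 2.91 and 3.05 CPM (-1.15 ± 0.14 SE, edgeR adjusted p = 0.0937). Npas4, a neuronal activity-dependent transcription factor, measured 3.74, 4.45, 1.66 and 1.77 CPM (-1.27 ± 0.18 SE, edgeR adjusted p = 0.133), and Nr4a2, an orphan nuclear receptor, 14.3, 13.2, 9.12 and 9.23 CPM. In female nuclei the list summed to 326 and 276 CPM against 191 and 212 CPM, and in male nuclei the ages overlapped at 241 and 271 against 244 and 202 CPM. Without overlap, 15 of 22 members lay lower in female and 12 in male nuclei (23.5% and 24.2% of all genes). In each sex 1 member lay higher (26.1% and 16.6% of all genes).

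Most of these promoters hold the half-site TGACG of the cAMP response element, the sequence bound by CREB. Searched on both strands, it was found in 15 of the 18 list members with a RefSeq promoter. Among all genes with a promoter it was found in 19.8%, and among all windows in 17.8%. Of the 15 members with it, 9 lay lower without overlap, and of the other 3, 1 did (23.8% of all genes). Arc, given above, was not among the 15. Nr4a2 (chr2:57124004-57124253, minus strand) held 4 matches and Npas4 (chr19:4989972-4990221, minus strand) held 2, marked in capitals in these 250-base windows of GRCm38.p6.
Nr4a2: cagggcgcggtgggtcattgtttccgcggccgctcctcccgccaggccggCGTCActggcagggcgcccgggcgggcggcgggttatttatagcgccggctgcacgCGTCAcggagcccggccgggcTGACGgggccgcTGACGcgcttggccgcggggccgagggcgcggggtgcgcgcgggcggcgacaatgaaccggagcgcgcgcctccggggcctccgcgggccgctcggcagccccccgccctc
Npas4: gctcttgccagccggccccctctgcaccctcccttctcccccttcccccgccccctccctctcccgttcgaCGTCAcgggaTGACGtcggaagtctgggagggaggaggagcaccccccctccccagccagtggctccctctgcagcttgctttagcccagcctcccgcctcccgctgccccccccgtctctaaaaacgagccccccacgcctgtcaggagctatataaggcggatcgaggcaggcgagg

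Clustered protocadherins, homophilic adhesion proteins that give neurons a surface identity, differed by cluster. Of 55 tested, 32 lay higher and 3 lower without overlap (22.5% and 23.8% of all genes), and 21 were higher at an unadjusted p under 0.05 (6.79%). The calls of DESeq2 numbered 8, all higher (1.73% of all genes), and those of edgeR none. All 21 tested members of the beta cluster lay higher, from 0.35 to 1.37 on the log2 scale with a median of 0.78, and they held 18 of the 21 members at an unadjusted p under 0.05 and all 8 of the DESeq2 calls. The beta genes together measured 36.3, 40.7, 67.4 and 62.3 CPM. The alpha genes measured 15.7, 17.2, 17.8 and 17.0 CPM with 2 of 13 higher and 3 lower, no more than the shares of all genes, and the gamma genes 59.0, 57.0, 75.3 and 62.9 CPM with 9 of 21 higher. This split by cluster was made after the values were seen and is given with no test.

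Pcdhb14 measured 5.60, 5.30, 10.3 and 8.79 CPM (0.80 ± 0.13 SE, edgeR adjusted p = 0.164). Pcdhb2, named as the largest difference of the cluster, measured 0.632, 0.780, 1.67 and 2.04 CPM (1.37 ± 0.23 SE, edgeR adjusted p = 0.181). Pcdhga12 of the gamma cluster measured 9.90, 9.09, 13.4 and 11.97 CPM (0.41 ± 0.11 SE, edgeR adjusted p = 0.293). Beta genes are short single-exon genes (median span 3718 bases) with similar sequences, and alpha and gamma genes share their last exons within a cluster, so the assignment of reads among members is uncertain. In female nuclei 39 and in male nuclei 27 of the 55 protocadherins were higher without overlap (26.1% and 16.6% of all genes).

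**Figure D4:**
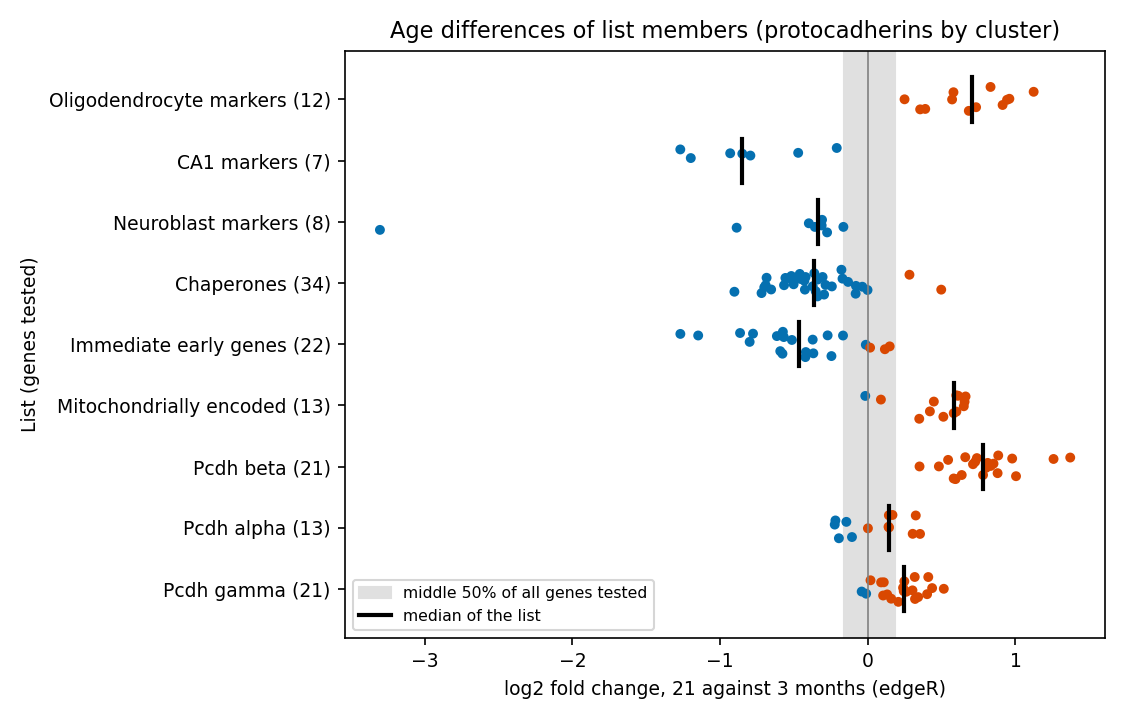
Log2 fold changes (edgeR, 21 against 3 months) of the tested members of 7 lists, with the protocadherins split into 3 clusters, 1 point per gene, orange above 0 and blue below, black bars for medians and a grey band for the middle 50% of all genes tested. Oligodendrocyte markers (median 0.71), mitochondrially encoded subunits (0.58) and beta protocadherins (0.78) lie to the right, and CA1 markers (-0.85), chaperones (-0.37) and immediate early genes (-0.47) to the left.

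Respiratory chain subunits are coded in part by the mitochondrial genome. Of 13 mitochondrially encoded ones, 10 lay higher at 21 months (22.5% of all genes) and none lower, and 8 were higher at an unadjusted p under 0.05 (6.79% of all genes), with a median of 0.58. By DESeq2 4 were called (1.73% of all genes) and by edgeR none. Those coding for subunits of cytochrome oxidase, mt-Co1 and mt-Co3, measured 9.85, 8.44, 12.8 and 15.3 CPM and 8.24, 7.08, 11.1 and 13.1 CPM. These transcripts are made outside the nucleus, and their share of UMIs was 0.00526%, 0.00437%, 0.00673% and 0.00762%. Of 82 nuclear-encoded subunits tested, 1 lay higher and 22 lower (26.8%, near the 23.8% of all genes; median -0.14), and their sum overlapped at 1631, 1888, 1612 and 1661 CPM. Of 78 cytosolic ribosomal protein genes tested, none lay higher and 8 lower (median -0.21), with 3-month replicate 2 the highest library in sum at 1278, 1757, 1345 and 1342 CPM.

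Among synaptic genes, those of glutamate receptors lay lower by small amounts. Of 30 genes for ionotropic glutamate receptors and their partners, 17 lay lower and 3 higher without overlap (23.8% and 22.5% of all genes; median -0.15), and 9 were lower at an unadjusted p under 0.05 (5.56%). Their summed CPM was lower in both old libraries than in both young ones. By sex, the sum was lower in female nuclei at 17780 and 18390 against 14990 and 17180 CPM. It overlapped in male nuclei at 16480 and 18400 against 17100 and 16830 CPM. Without overlap, 19 of 30 members lay lower in female and 11 in male nuclei (23.5% and 24.2% of all genes). Of the 30 genes, DESeq2 called 1 lower (0.840% of all genes) and edgeR none. The NMDA receptor subunit gene Grin2a measured 3387.5, 3644, 2980.3 and 3166 CPM and the AMPA receptor subunit gene Gria1 2811, 3264, 2592 and 2730.2 CPM. Shank1, a postsynaptic scaffold named after its values were seen, measured 125, 130, 95.0 and 102 CPM (-0.38 ± 0.08 SE, edgeR adjusted p = 0.220). Of 27 presynaptic vesicle genes, 4 were higher and 9 lower (median -0.06), and of 19 genes for GABA receptors and synthesis, 2 and 6 (median -0.03), so that 33.3% and 31.6% lay lower. Of 42 long adhesion genes of the synapse, 3 were higher and 16 lower (median -0.06).

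Among the remaining lists, proteasome subunits had 1 member higher and 15 lower of 31 (median -0.10). Splicing factors had 6 and 11 of 47 (median -0.04), nuclear long noncoding RNAs 1 and 7 of 15 (median -0.12), and the single higher one was Neat1. Histone genes had 6 and 15 of 43 tested (median -0.21), collagens 13 and 7 of 44 (median 0.27) and clock genes 5 and 3 of 20 (median 0.03). Glucocorticoid response genes had no member higher and 6 lower of 16 (median -0.09), with Zbtb16 at 352, 354, 296 and 258 CPM. Neurotrophins and receptors had 2 and 2 of 16 (median 0.09) and genes of senescence 5 and 0 of 16 (median 0.13). These shares stand beside 22.5% of all genes higher and 23.8% lower without overlap.

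The age difference was set against gene length, since long genes hold a large share of nuclear RNA. Across the 21419 genes with a length, Spearman's rho between the log2 fold change and the gene span was 0.167, a description across genes, which are not independent. The median log2 fold change was -0.08 for genes under 10 kb, -0.02 for 10 to 30 kb, 0.02 for 30 to 100 kb, 0.06 for 100 to 300 kb and 0.03 above 300 kb. Among protein-coding genes rho was 0.214. With the summed exon length in place of the span it was 0.0623.

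Libraries of 1 age differed from each other in this respect as much as libraries of different ages. Each library's own rho of its deviation from the gene mean with the span was 0.00669, -0.205, 0.226 and 0.000920, so that 3-month replicate 2 leaned to short genes and 21-month replicate 1 to long ones while the other libraries showed no slope. The mean of the old libraries exceeded that of the young ones by 0.213, and the exact two-sided permutation test over libraries gave p = 0.667, where 0.333 is the lowest it can reach. Between replicates, rho was -0.173 within 3 months (replicate 2 over 1) and -0.186 within 21 months, and the comparisons of an old with a young library gave 0.168, -0.00365, 0.231 and 0.150. Without 3-month replicate 2 the trend was 0.078, and without 21-month replicate 1 it was 0.087. Over all genes the length trend was thus not larger than the spread between replicates. Within 5 equal groups of genes by mean level, a split added after the data were seen, the trend with age was between 0.0843 and 0.376, highest in group 4. In that group the replicates differed by -0.360 within 3 months and -0.373 within 21 months, and in each of the others the 3-month replicates differed by more than the ages did. The 21-month replicates differed by less than the ages in groups 1, 2, 3 and 5, at -0.0281, -0.132, -0.282 and -0.113. Comparisons of single old and young libraries ran from -0.0229 to 0.455 in group 4. Their lowest values in groups 1, 2, 3 and 5 were 0.00825, 0.0118, 0.00432 and 0.0505. The exact two-sided permutation tests gave p from 0.333 to 0.667.

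**Figure D5:**
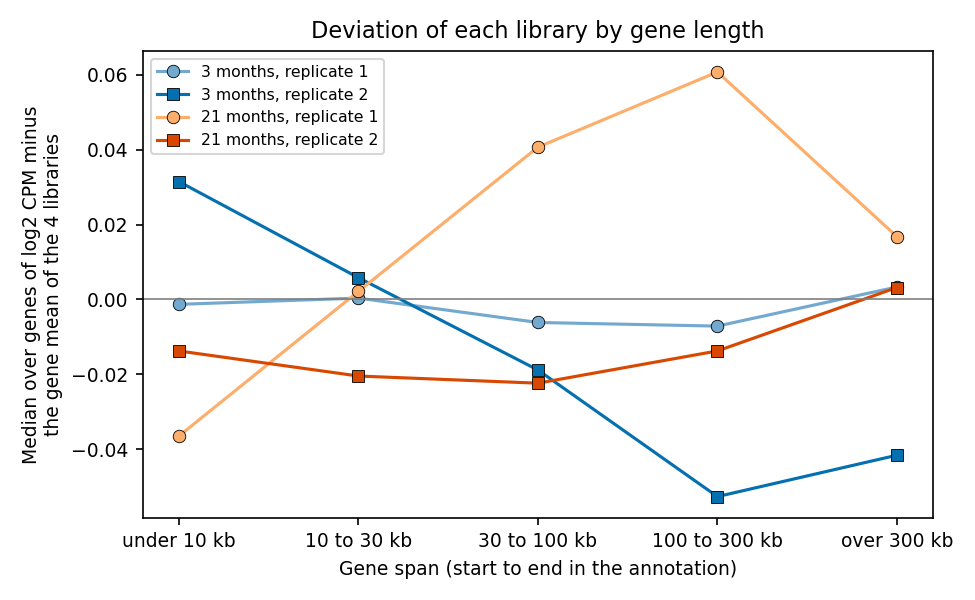
Median over genes of log2 CPM minus the gene's mean over the 4 libraries (vertical axis) in 5 classes of gene span (horizontal axis), 1 line per library, blue for 3 months and orange for 21 months. 21-month replicate 1 and 3-month replicate 2 slope in opposite directions, and 3-month replicate 1 and 21-month replicate 2 stay close to 0.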

How the data were processed

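Nuclei from each hippocampal library were profiled on the 10x Genomics v3.1 platform, and the authors deposited raw counts of UMIs per gene and barcode, with no normalization. Per the file headers the hippocampal matrices were made with Cell Ranger 6.1.2, while the submitters' processing notes list 4.0.0 and the build mm10. The annotation, strand use and counting of intronic reads are not given in the sources used here. Doublets were not called. The matrices held 32285 genes, of which 32235 identifiers (99.8%) matched GENCODE vM21 of GRCm38, the source of coordinates and lengths.

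Counts were summed over barcodes with at least 500 genes. Differences were tested by quasi-likelihood in edgeR 4.0.16 (TMM, filterByExpr, robust) with 1 mean per age and the Benjamini-Hochberg adjustment over all genes tested. DESeq2 1.42.0 and limma 3.58.1 served as alternatives. Standard errors (SE) were derived from the F statistic. Replicates of an age differed by far more than counting noise (chi-square per degree of freedom 54.3 and 31.8). A nucleus was female with Xist and no Y-linked UMI, and male in the reverse case. The sex-by-age test used library as a block and was added after the data were seen.

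The comparison and the gene lists were chosen with earlier results of these data known. Named were the called genes with a symbol other than a Gm or Rik number, C4b, Gfap, Apoe, Dcx, Sox11 and Bdnf, and per list the called members or up to 2 of the highest level. Others are marked as named after their values were seen. Some genes that this rule takes are not reported here. Where several rows shared a symbol the one with the higher mean was used for lists.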

Additional observations from a re-analysis of the deposited data

Results flagged for a closer look

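The age difference of A530053G22Rik was larger in female than in male nuclei by 1.775 on the log2 scale in the sex-by-age test. For 5 lists the summed CPM moved one way in both libraries in female nuclei and the other way in male nuclei, and these differences between the sums were not tested. In the sex-by-age test of single members, 4 of 9 precursor markers, 4 of 4 perivascular macrophage markers, 3 of 17 complement genes, 2 of 22 neurogenesis genes and 10 of 44 collagens were more positive in females at an unadjusted p under 0.05 (8.76% of all genes), 2 neurogenesis genes and 2 collagens were more negative (6.80%), and edgeR called none after adjustment. Oligodendrocyte precursor markers measured 1036 and 1106 CPM in young and 1249 and 1246 in old females, against 1221 and 1191 in young and 1069 and 1088 in old males, and the female log2 ratio of old to young exceeded the male one by 0.381. The same difference was 1.835 for perivascular macrophage markers, -0.231 for complement genes, 0.122 for neurogenesis genes and 0.167 for collagens. The median sex-by-age coefficient over the 17 complement genes was 0.22, opposite in sign to the difference of their sums. Lhfpl3, a precursor marker singled out after its values were seen, had a sex-by-age coefficient of 1.21 ± 0.14 SE (edgeR adjusted p = 0.0593). It measured 128 and 115 CPM in young and 259 and 273 in old females, against 230 and 180.5 in young and 159 and 218 in old males. Tnr made up most of the precursor sums, at 753 and 871 CPM in young and 710 and 817 in old females. In males it measured 800 and 893 CPM in young and 759 and 729 in old ones.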

How the results depend on the processing

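Depth and replication set the limits here: 2 libraries per age leave 2 residual degrees of freedom, the deepest young library held 3.5 times the UMIs of the shallowest old one, and genes under 1 CPM rest on few UMIs. The 10 genes called kept their direction in every setting that tested them (9 of them with a minimum of 5 CPM). The count of 10 became 550 with DESeq2, 99 with no filter on low counts, 24 with equal nuclei per library, 0 with female nuclei only (2952 genes at an unadjusted p under 0.05) and 2 with each nucleus scaled to the same total (limma), and 1 to 3 when a library was left out. With all 8 libraries in the fit it was again 10, 8 higher and 2 lower, of which 5 were among the 10, and with male nuclei only it was 8, of which 4 were. List members called went from 1 to 68 with DESeq2, 12 with no filter, 2 after thinning to the smallest total, 3 with equal nuclei, 2 with all 8 libraries in the fit, 0 with female, with male and with scaled nuclei, and 0 to 1 when a library was left out. The share of higher among called genes was 67.3% by DESeq2.

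The replicate number of the titles is not said to mark shared animals or days, and with 2 pairs the correlation of deviations of same-numbered libraries (0.335) mirrors itself by construction. A fit with the replicate block called 1418 genes, 963 higher and 455 lower, and 141 list members, among them 7 of 11 astrocyte markers, all higher.

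The length trend of 0.167 was 0.308 among genes of at least 5 CPM and 0.0623 with exon length, and lay between 0.078 and 0.185 when a library was left out. Among log2 ratios of summed marker lists, the mean of log2(CPM + 1) over members gave -0.704 for CA1, -0.064 for interneurons (0.223 as a sum) and 0.083 for committed precursors. Scaling each nucleus gave 0.060 for mossy cells, -0.598 for Cajal-Retzius cells, -0.602 for neuroblasts, 0.697 for committed precursors and 0.622 for ependymal cells. Leaving out a library gave 0.084 to 0.364 for CA3, 0.090 to 0.235 for mossy cells, -0.451 to -0.136 for Cajal-Retzius cells, -0.477 to -0.220 for neuroblasts and 0.333 to 1.23 for choroid plexus. The cause was not tested. No named gene that was called reversed. Reversed log2 fold changes when a library was left out were -0.088 for Apoe without 3-month replicate 2 and -0.201 without 21-month replicate 1 (up to 0.396), and -6.76 for Ttr without 21-month replicate 2 (up to 9.10). With female nuclei only they were -0.044 for Bdnf, 0.087 for Wfs1 and -0.093 for Grik4. With male nuclei only they were -0.023 for Bcas1, -0.121 for Cryab, 0.215 for Jun and 0.009 for Prox1. Jun was 0.120 without 3-month replicate 2, 0.132 without 21-month replicate 1 (down to -0.159), 0.012 with genes of at least 5 CPM, 0.017 without the top 5% of barcodes and 0.064 with the length trend removed, and Prox1 was 0.158 without 3-month replicate 2 (down to -0.266).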
